A study of Mus musculus with 18 samples.

Results

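The 10 genes described here encode enzymes that hydroxylate and crosslink collagen. They are the lysyl oxidases Lox, Loxl1, Loxl2, Loxl3 and Loxl4, the lysyl hydroxylases Plod1, Plod2 and Plod3, and the alpha subunits P4ha1 and P4ha2 of prolyl 4-hydroxylase. They were chosen by gene symbol, with earlier results of these data known. All 10 were found among the 32285 genes of the count tables, each in a single row. Their levels were followed over the day in dermal fibroblasts as a whole and in fibroblast subtypes.

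The cells came from the dorsal dermis of male wild-type C57BL/6J mice of about 54 days with resting (telogen) hair follicles, which was digested with collagenase and sorted for live cells. The mice lived in a cycle of 12 h of light and 12 h of dark, and 3 mice were collected at each of the zeitgeber times ZT2, ZT6, ZT10, ZT14, ZT18 and ZT22, where ZT counts the hours from lights on. Each mouse gave 1 droplet library that counts unique molecular identifiers (UMIs, 1 per captured transcript 3′ end), and replicates 1, 2 and 3 of each time were collected on consecutive days. No mouse was mutant or treated, so the comparisons are between times of day, cell types and fibroblast subtypes.

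Between 4850221 and 40827442 UMIs were counted per library, and 16877 of 23990 barcodes passed the filters on genes and mitochondrial UMIs. Clusters were named from marker genes as 11672 fibroblast-like, 2760 immune-like and 735 muscle-like cells, called fibroblasts, immune cells and muscle cells below, and all 6 fibroblast markers were detected in every fibroblast cluster. Of 23824 distinct barcodes, 164 occurred in more than 1 library. The library of ZT14 replicate 1 stood apart in its subtypes: 41.7% of its 266 fibroblasts were in the interferon-response subtype, against a median of 8.83% over the 18 libraries. Lox and Loxl2 were called without it too. The adjusted p of the rhythm in fibroblasts is given with and without it for Loxl4, Plod2, Plod3 and P4ha1, whose highest value it held. It also held the highest value of Loxl3, which was not called whichever library was left out.

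Fibrillar collagen is modified both before and after it leaves the cell. In the endoplasmic reticulum, prolyl 4-hydroxylase, a complex of an alpha subunit (P4ha) with protein disulfide isomerase (P4hb), hydroxylates prolines and so stabilises the triple helix, while the lysyl hydroxylases (Plod) hydroxylate lysines, some of which are later glycosylated. Outside the cell, lysyl oxidases are copper enzymes that oxidise lysine and hydroxylysine side chains to aldehydes, from which the covalent crosslinks of collagen and elastin form. The covalent crosslinks of collagen give the dermis tensile strength. Plod2 hydroxylates the telopeptide lysines of collagen.

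Promoter sequences are shown for 3 members that differ in the time of day at which their level was highest in fibroblasts: Loxl4, a lysyl oxidase, highest in the light phase, and Plod3 and P4ha1, highest in the dark phase. RefSeq promoters (250 bases before to 50 bases after a transcript start, GRCm38.p6) were at hand for 5 of the 10 members, namely these 3, Plod1 and P4ha2. Sequences are written 5′ to 3′ on the strand of the gene. Capitals mark the hypoxia response element core ACGTG or its reverse complement, the one motif of those searched that was found.
Loxl4, chr19:42612757-42613056, minus strand: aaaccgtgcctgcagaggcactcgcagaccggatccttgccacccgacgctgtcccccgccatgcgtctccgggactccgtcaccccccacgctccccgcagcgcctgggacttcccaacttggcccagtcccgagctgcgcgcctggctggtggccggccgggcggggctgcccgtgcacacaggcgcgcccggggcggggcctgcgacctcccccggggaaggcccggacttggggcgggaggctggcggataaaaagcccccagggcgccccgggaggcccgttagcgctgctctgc
Plod3, chr5:136986769-136987068, plus strand: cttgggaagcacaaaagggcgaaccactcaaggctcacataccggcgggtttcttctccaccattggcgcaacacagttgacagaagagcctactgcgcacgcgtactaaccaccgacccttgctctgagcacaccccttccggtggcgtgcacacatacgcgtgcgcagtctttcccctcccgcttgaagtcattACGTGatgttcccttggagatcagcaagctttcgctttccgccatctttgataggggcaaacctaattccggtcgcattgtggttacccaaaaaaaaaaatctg
P4ha1, chr10:59323046-59323345, plus strand: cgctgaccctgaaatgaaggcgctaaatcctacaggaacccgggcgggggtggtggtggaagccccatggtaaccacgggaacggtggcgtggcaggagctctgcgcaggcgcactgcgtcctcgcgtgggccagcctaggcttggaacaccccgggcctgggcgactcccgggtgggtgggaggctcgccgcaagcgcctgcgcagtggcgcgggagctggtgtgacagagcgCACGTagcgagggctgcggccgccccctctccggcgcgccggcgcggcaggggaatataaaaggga
The core ACGTG begins 54 bases before the start in Plod3 and 16 bases before it in P4ha1, and P4ha2 holds it 2 times. The letters ACGTG were not found in these windows of Loxl4 and Plod1. Other forms of the hypoxia response element were not searched, so these windows are not shown to lack the element. On both strands, 19.6% of all 32851 promoters of the same length hold ACGTG, so that a match is common. The clock motifs searched on both strands, the E-box CACGTG (7.15% of all promoters), its variant CATGTG (14.2%), the D-box TTANNTAA (6.00%) and the ROR element core AGGTCA (16.3%), had no match in the 5 windows, where CACGTG would also count as ACGTG. A match or its absence in 300 bases is a description of these letters only.

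Fibroblasts carried all 10 transcripts, and the lysyl oxidases the most. The levels below are UMIs per 10000 UMIs of all genes in the summed fibroblasts of a library. UMIs count 3′ ends and were not divided by gene length, and capture can differ between genes. Loxl1, which is needed for elastic fibres, was the highest in all 18 libraries, at 7.41 ± 0.375 (SD, n = 18), with a lowest value of 6.78 and a highest of 8.03. It was also the steadiest of the 10, with a coefficient of variation of 5.06%. Loxl2, which oxidises collagen IV among its substrates, followed at 3.55 ± 0.731 per 10000 (lowest 2.57, median 3.32, highest 5.20), and Lox, the founding member of the family, at 2.40 ± 0.838 (lowest 1.21, median 2.18, highest 4.41).

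The hydroxylases and the other lysyl oxidases were lower. P4ha1 was at 1.35 ± 0.213 UMIs per 10000 (0.908 to 1.78) and P4ha2 at 0.981 ± 0.123 (0.770 to 1.15), the other values being between 0.338 and 0.798 for Plod1, 0.386 and 0.736 for Plod3, 0.320 and 0.560 for Loxl3, 0.0739 and 0.200 for Plod2, and 0.0629 and 0.218 for Loxl4. Most neighbours in this order were apart in 16 to 18 of the 18 libraries. The exceptions were Plod1 over Plod3, in 12 of 18 libraries, and Plod2 over Loxl4, in 10 of 18, whose differences were within their spread. Of all lysyl oxidase UMIs of fibroblasts, 54.1% were Loxl1, 25.95% Loxl2, 16.1% Lox, 3.05% Loxl3 and 0.783% Loxl4. Plod1 and Plod3 made up 47.6% and 41.8% of the lysyl hydroxylase UMIs, and P4ha1 58.7% of the prolyl hydroxylase UMIs.

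Lox, Loxl1, Loxl2, Loxl4 and P4ha2 were far lower in immune cells than in fibroblasts, while Plod1 and Plod3 were nearly as high or higher in immune cells. Clusters left unnamed are not part of these immune cells, though immune markers were detected in some of them. Among them were 341 cells led by Stab1, 147 led by S100a9, 76 led by Csf2 and 54 led by Mcpt4. Loxl2 and P4ha2 were found in the last, as given under Other observations. The immune sums held 1.44% of the fibroblast level of Lox, 1.63% of that of Loxl1, 1.80% of that of Loxl2, 2.32% of that of P4ha2 and, from 2 UMIs, 0.483% of that of Loxl4. The 6 fibroblast markers (Col1a1, Col1a2, Col3a1, Dcn, Lum and Pdgfra), which immune cells should lack, stood at 1.196% to 1.572% of their fibroblast level there, so levels of about this size or below are read as background. Loxl3 and Plod2 were above it, at 8.99% and 8.58%. Their immune UMIs were unevenly held: the 22 cells of the cluster led by Ccl22 had 18 of the 145 UMIs of Loxl3, and the 199 cells of the cluster led by Gzma had 24 of the 40 of Plod2.

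The other 3 members were clearly present in immune cells. Plod1 had 0.615 ± 0.195 UMIs per 10000 (SD, n = 18) in immune cells and 0.560 ± 0.114 in fibroblasts, and was higher in fibroblasts in 9 of 18 libraries. Plod3 had 0.375 ± 0.110 in immune cells and 0.475 ± 0.0797 in fibroblasts, which were higher in 16 of 18 libraries. P4ha1 had 0.586 ± 0.156 against 1.35 ± 0.213 and was higher in fibroblasts in 18 of 18. Of the prolyl hydroxylase UMIs of immune cells, 96.3% were P4ha1, against 58.7% in fibroblasts. In muscle cells the 10 members stood at 1.10% to 11.2% of the fibroblast level, and the fibroblast markers at 1.27% to 2.89%.

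**Figure D1:**
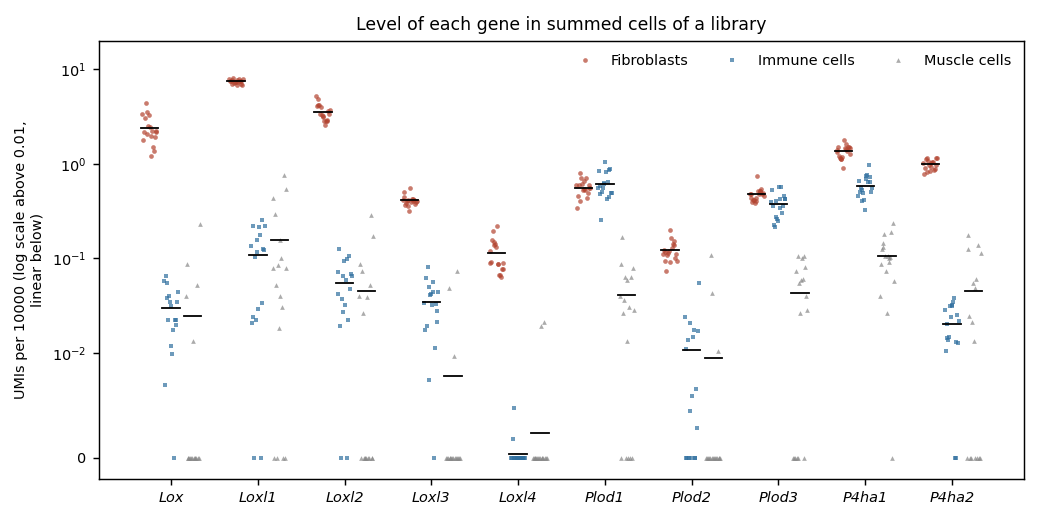
UMIs per 10000 of each gene (logarithmic axis above 0.01, linear below) in the summed fibroblasts (18 libraries), immune cells (18) and muscle cells (17 libraries with at least 10 such cells), 1 point per library, with the mean as a black line. The points of immune cells overlap those of fibroblasts for Plod1 and Plod3, while for Lox, Loxl1, Loxl2, Loxl4 and P4ha2 they lie far below.

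Shares of cells with a UMI were compared in cells thinned to 5000 UMIs each, which left out 149 fibroblasts and 319 immune cells with fewer. Loxl1 was seen in 92.7% of fibroblasts (exact 95% binomial interval 92.2% to 93.1%, counting error only) and in 2.09% of immune cells (1.56% to 2.74%), and Loxl2 in 77.6% and 2.25%. Plod1 was seen in 21.4% of fibroblasts and 24.3% of immune cells. P4ha1 was seen in more fibroblasts (48.3%) than Lox (42.8%), although its level was lower in 16 of 18 libraries, so Lox UMIs were held by fewer cells. Loxl4 was seen in 5.06% of fibroblasts and 0.0410% of immune cells. Without thinning, at medians of 22620 and 12810 UMIs per cell, Loxl1 was seen in 98.4% and 5.22%, Loxl2 in 97.4% and 3.70%, Plod1 in 59.7% and 40.4%, and Loxl4 in 19.2% and 0.0725%.

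Among fibroblasts the members were spread unevenly over 7 subtypes, each written after a leading gene or, for interferon-response cells, after its marker list. They were the Sult1e1 (4860 cells), Krtdap (1857), Cxcl1 (1841), interferon (1208), Cthrc1 (781), Cxcl14 (559) and Cilp (516) subtypes, while 50 cycling cells were left unnamed. Stress genes such as Ptgs2, Egr1 and Dnajb1 were among the leading genes of the Cxcl1 subtype. The 10 members were left out of the genes used for clustering, but the same cells were clustered, so differences between subtypes are given as descriptions, for libraries with at least 10 cells of a subtype.

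Lox was the most uneven member. Its level was 14.5 ± 6.41 UMIs per 10000 (SD, n = 15 libraries; lowest 6.10, median 13.1, highest 27.1) in the Cilp subtype, whose marker Cilp encodes a matrix protein of cartilage and other dense connective tissue, and 6.60 ± 1.32 (n = 17) in the Cthrc1 subtype. In the other 5 subtypes the means were between 0.961 ± 0.271 (n = 17), in the Krtdap subtype, and 1.53 ± 0.488 (n = 18), in the Sult1e1 subtype. The Cilp subtype was above the Cthrc1 subtype in 15 of 15 libraries, and the Cthrc1 above the Sult1e1 subtype in 17 of 17, while the other neighbours in the order were within their spread. The Cilp subtype, 4.42% of the fibroblasts, held 25.3% of their Lox UMIs, and the Cthrc1 subtype, 6.69% of them, held 24.3%.

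Loxl1 was distributed differently. Its level was 9.39 ± 0.812 UMIs per 10000 in the Krtdap subtype (n = 17) and 8.38 ± 0.519 in the Sult1e1 subtype (n = 18), the former being higher in 17 of 17 libraries. It was below 5 per 10000 on average in the Cthrc1, Cxcl14 and Cilp subtypes, with 3.36 ± 0.781 in the last (n = 15). Loxl2 differed less, from 3.99 ± 0.732 in the Cthrc1 subtype (n = 17) to 2.57 ± 0.768 in the Cxcl14 subtype (n = 16). In the Cilp and Cthrc1 subtypes the mean of Lox thus exceeded that of Loxl1 (3.58 ± 0.687 in the latter, n = 17), whereas in fibroblasts as a whole Loxl1 was the higher.

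Plod1 set the Cthrc1 subtype apart, whose marker Cthrc1 encodes a secreted protein that is induced in injured tissue. Plod1 was at 1.54 ± 0.194 UMIs per 10000 there (n = 17), above the Cilp subtype (0.829 ± 0.282, n = 15) in 14 of 15 libraries and at 4.50 times the mean of the Krtdap subtype (0.341 ± 0.0716, n = 17). P4ha2 had its highest mean there, at 1.61 ± 0.294, which was above the Cilp subtype (1.22 ± 0.217) in 13 of 15 libraries but within the spread of the difference, and was lowest in the Krtdap subtype, at 0.755 ± 0.102. Plod2 and Loxl3 were at their lowest in the same cells. Plod2 was at 0.0232 ± 0.0409 per 10000, from 35 UMIs in all, against 0.160 ± 0.0384 in the Krtdap subtype, and Loxl3 was at 0.126 ± 0.0766 against 0.541 ± 0.142 in the Cilp subtype. P4ha1 and Plod3 were the most even hydroxylases, with ratios of 1.33 and 1.62 between the highest and lowest subtype mean.

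**Figure D2:**
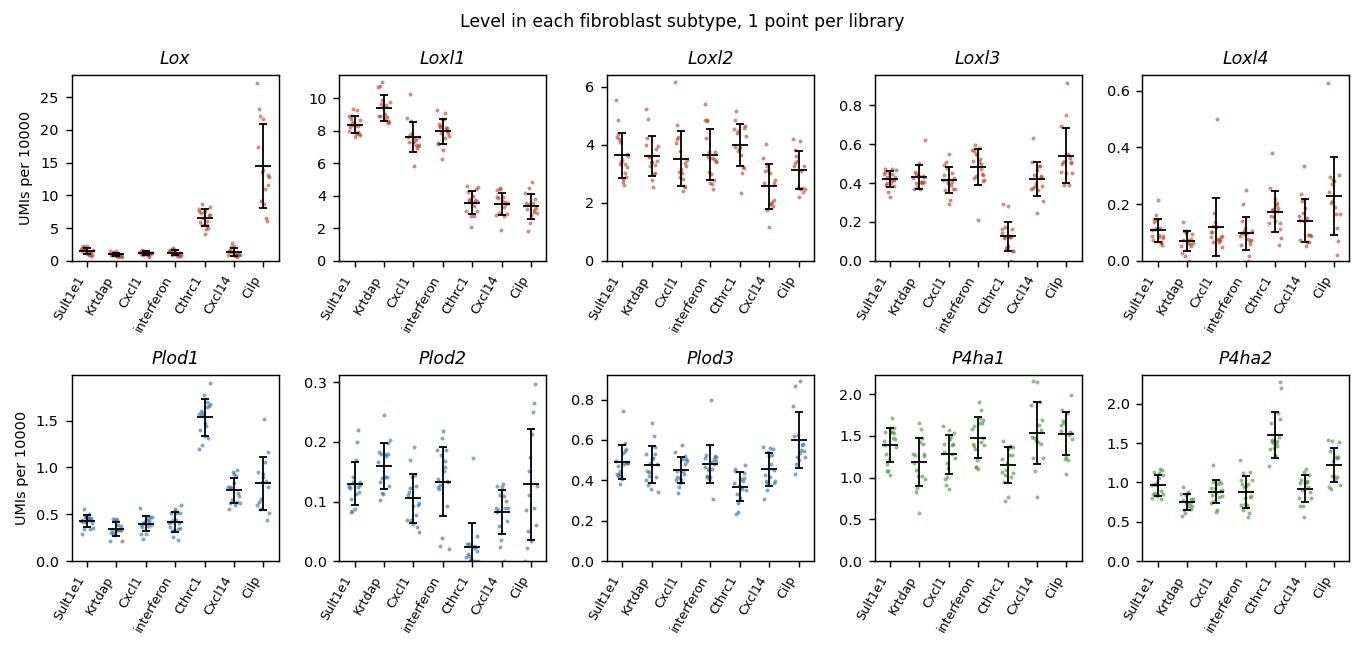
UMIs per 10000 of each gene in each fibroblast subtype, 1 point per library with at least 10 cells of that subtype (15 to 18 libraries), with mean and SD in black. Lox stands out in the Cilp and Cthrc1 subtypes and Plod1 in the Cthrc1 subtype, where Plod2 and Loxl3 are lowest, and Loxl1 is higher in the Sult1e1, Krtdap, Cxcl1 and interferon subtypes than in the other 3.

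A 24 h rhythm was called for 5 of the 10 members in fibroblasts: Lox, Loxl2 and Loxl4 were higher in the light phase, and Plod2 and Plod3 in the dark phase. Loxl2 and Loxl4 were called whichever library was left out. The calls of Lox, Plod2 and Plod3 depended on single libraries, that of Plod3 in 15 of 18 fits. A gene was called where the adjusted p (edgeR quasi-likelihood F test of a 24 h cosine on summed UMIs, Benjamini-Hochberg over all genes) was under 0.05, and 13.0% of the 12824 genes tested were called. The paper had listed Loxl2 among the genes rhythmic in dermal fibroblasts of these data, and the members were chosen with earlier results known. Their 5 of 10 is therefore no unbiased count beside the 13.0%. Among all 1662 genes called, 50.7% had their peak in the light. The split of the called members by family was not tested. Below, the times set side by side for a gene are mostly those with its highest and lowest means, picked after seeing the values. A lack of overlap between them is partly built in by this choice. It is a description and is not read as support for a rhythm, here or within subtypes and immune cells.

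Loxl2 had the clearest rhythm. The gene lies at chr14:69609068-69695834 (GRCm38, plus strand). Its level at ZT2 was 5.20, 4.12 and 4.21 UMIs per 10000 in the 3 libraries, at ZT14 it was 3.09, 2.81 and 2.57, and at ZT18 it was 2.83, 2.93 and 2.84. All 3 libraries of ZT2 were thus above all those of ZT14 and ZT18, and the mean fell step by step from ZT2 (4.51 ± 0.602, n = 3) to ZT14 (2.82 ± 0.261). The fitted cosine had an amplitude of 0.37 ± 0.06 on the log2 scale (jackknife SE over libraries), a peak-to-trough ratio of 1.67 and a peak at 3.81 ± 0.581 h (edgeR adjusted p = 0.000525). It was called whichever library was left out.

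Loxl4, the least abundant lysyl oxidase, had the largest amplitude, 0.61 ± 0.08 on the log2 scale, with a peak at 8.17 ± 1.18 h (edgeR adjusted p = 0.00475). The gene lies at chr19:42593982-42612813 (minus strand). At ZT6 its level was 0.156, 0.196 and 0.139 UMIs per 10000 and at ZT10 it was 0.148, 0.141 and 0.132, while at ZT18 it was 0.0660, 0.0669 and 0.0629. The ZT6 and ZT18 libraries do not overlap. The highest value of all, 0.218, belonged to ZT14 replicate 1, the library that stood apart, whose fellow libraries were at 0.0875 and 0.0861. Loxl4 was called without that library too (edgeR adjusted p = 1.23e-05), as it was without any other.

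Lox was between them in phase, with a peak at 6.43 ± 1.02 h, and had an amplitude of 0.50 ± 0.14 on the log2 scale and a peak-to-trough ratio of 2.00 (edgeR adjusted p = 0.0217). Its level was 3.04, 4.41 and 2.07 UMIs per 10000 at ZT6 and 2.19, 1.49 and 1.36 at ZT18, so the libraries of the highest and the lowest time overlapped. The call was lost without ZT6 replicate 2 or without ZT18 replicate 3, with adjusted p up to 0.0664, and also with the 6 times as a factor (0.0991), with JTK_Cycle (unadjusted p = 0.247) and without the interferon, Cxcl1 and Krtdap subtypes (0.0748). The share of the Cthrc1 subtype was 6.51% ± 6.87 of fibroblasts at ZT2, 12.97% ± 9.60 at ZT6 and 11.05% ± 5.63 at ZT10. It was 4.15% ± 1.06 at ZT14, 5.73% ± 2.53 at ZT18 and 8.12% ± 1.30 at ZT22. The share of this subtype reached 23.9% in ZT6 replicate 2, the library with the highest Lox. That of the Cilp subtype, which held about as many Lox UMIs, was highest on average at ZT14 (7.70% ± 3.95) and ZT10 (7.21% ± 1.34), with 4.55% ± 2.53 at ZT6 and 3.29% ± 1.59 at ZT2 (n = 3 each). In fibroblasts without the Cilp and Cthrc1 subtypes, a choice made after seeing the data, Lox was called, with an edgeR adjusted p of 0.00832. The part of subtype shares in the rhythm of Lox was not tested.

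Plod2 and Plod3 were higher in the dark phase, with smaller amplitudes and less stable calls. Plod2 (chr9:92542223-92608428, plus strand) was at 0.200, 0.162 and 0.127 UMIs per 10000 at ZT14 and at 0.0941, 0.0739 and 0.108 at ZT6, which do not overlap. Its amplitude was 0.28 ± 0.08 on the log2 scale and its peak at 15.8 ± 1.03 h (edgeR adjusted p = 0.0330). The call was lost without any of replicates 1 and 2 of ZT6, 1 and 2 of ZT14, and 2 and 3 of ZT18, with adjusted p up to 0.0774 and of 0.0593 without ZT14 replicate 1, with JTK_Cycle (unadjusted p = 0.154), with the mean of single cells (0.0522) and without the Cilp and Cthrc1 subtypes (0.0771). The share of the Krtdap subtype, which had the highest mean of Plod2, was 23.9% ± 5.07 of fibroblasts at ZT14 and 24.1% ± 5.61 at ZT18. Its means at the other times were between 7.85% (ZT22) and 13.9% (ZT10), with 12.9% ± 14.3 at ZT6. The part of subtype shares in the rhythm of Plod2 was not tested. Plod3 (chr5:136987019-136996648, plus strand) was at 0.736, 0.509 and 0.480 per 10000 at ZT14 and at 0.395, 0.413 and 0.409 at ZT6. The groups do not overlap, and the value of ZT14 replicate 1 was again the highest. Its amplitude was 0.19 ± 0.04 and its peak at 17.5 ± 1.58 h (edgeR adjusted p = 0.0492), a call close to the threshold that was lost in 15 of the 18 fits without 1 library, with adjusted p up to 0.0966. It was kept without ZT14 replicate 1 (0.00397), ZT2 replicate 1 or ZT22 replicate 3. It was lost with no filter on low counts (0.0628), finer clusters (0.0541), the 6 times as a factor (0.0969) and without the Cilp and Cthrc1 subtypes (0.0503).

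P4ha1 (chr10:59323296-59373304, plus strand) had values of the same kind but was not called. It was at 1.78, 1.46 and 1.63 UMIs per 10000 at ZT14 and at 1.11, 1.17 and 0.908 at ZT10, with no overlap. Its fitted amplitude was 0.18 ± 0.05 on the log2 scale with a peak at 19.2 ± 1.50 h (edgeR adjusted p = 0.0865, and 0.0525 without ZT14 replicate 1), and with the 6 times as a factor in place of the cosine the adjusted p was 0.0274. Loxl1 (adjusted p = 0.690), Loxl3 (0.895), Plod1 (0.630) and P4ha2 (0.947) did not pass the test either. Of these, Loxl1 was the most closely measured, with 198729 UMIs in all and time means between 7.18 ± 0.568 and 7.62 ± 0.219 (n = 3 each).

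**Figure D3:**
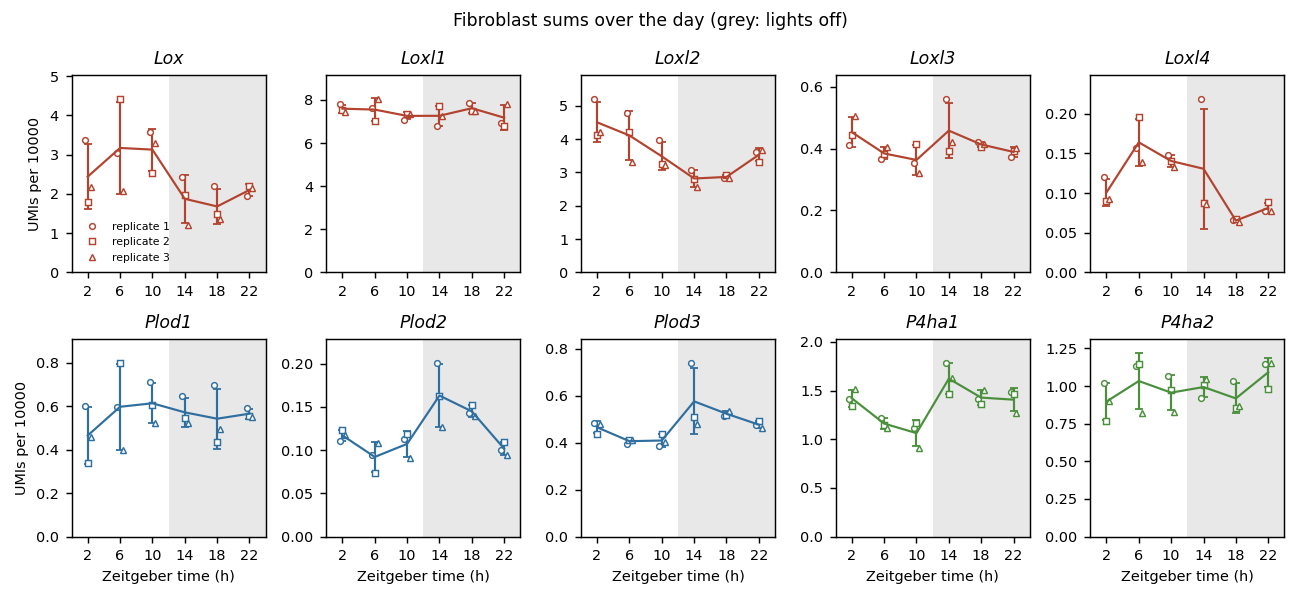
UMIs per 10000 in summed fibroblasts at each zeitgeber time, 1 symbol per library (circle, square and triangle for replicates 1, 2 and 3), with the line through the means and SD bars (n = 3), and grey for the dark phase. Loxl2 falls from ZT2 to ZT14, Loxl4 is lowest at ZT18, Plod2, Plod3 and P4ha1 are highest at ZT14, and Loxl1 stays between 6.78 and 8.03.

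**Figure D4:**
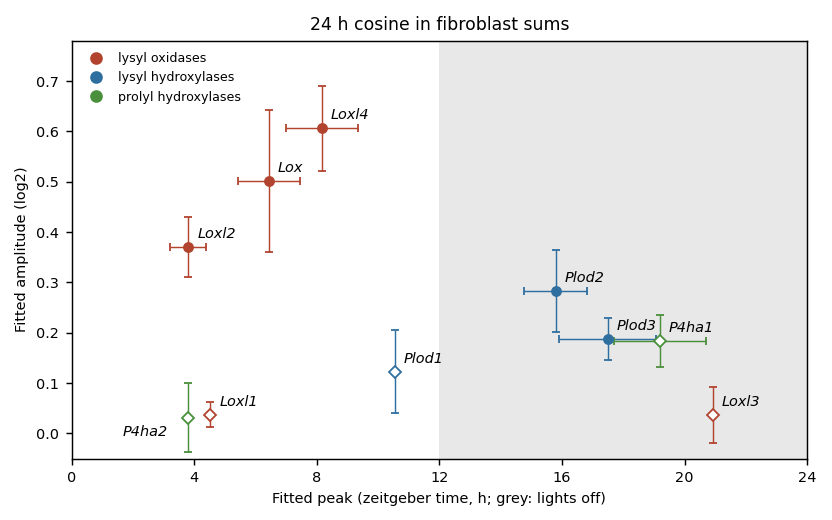
Fitted peak time (horizontal, h of zeitgeber time) and amplitude (vertical, log2) of the 24 h cosine in summed fibroblasts, with jackknife standard errors over the 18 libraries. The horizontal bar is drawn where it is under 3 h. Filled circles passed the edgeR test and open diamonds did not, and grey marks the dark phase. The 3 lysyl oxidases that passed peak between 3.81 and 8.17 h, the 2 lysyl hydroxylases at 15.8 and 17.5 h.

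Over the 3 light times together, Lox was at 2.91 ± 0.845 UMIs per 10000 (SD, n = 9) and over the 3 dark times at 1.88 ± 0.429. The summed lysyl oxidases were between a mean of 15.4 at ZT6 and of 12.6 at ZT14, a sum that is mostly Loxl1. The summed lysyl hydroxylases went from 1.05 at ZT2 to 1.31 at ZT14, and the summed prolyl hydroxylases from 2.02 at ZT10 to 2.62 at ZT14. These sums were not tested.

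Within subtypes, the rhythm of Loxl2 was called in 4 of 7 and that of Lox in 4 of 7. Loxl4 and Plod3 were called in the Sult1e1 subtype only. Plod2 was called in no subtype, with a lowest edgeR adjusted p of 0.0779 in the Cilp subtype, and was not tested in the Cthrc1 and Cxcl14 subtypes. The Sult1e1 subtype, the largest, had calls for 5 of 10 members, where 11.6% of all genes were called: Loxl2, with a peak at 3.71 ± 0.647 h (edgeR adjusted p = 0.000360), Loxl4 at 8.55 ± 0.847 h (0.00174), Lox at 5.61 ± 1.07 h (0.00963), P4ha1 at 19.1 ± 1.18 h (0.0230) and Plod3 at 18.04 ± 1.10 h (0.0340). The order of the peaks was that of fibroblasts as a whole, of which this subtype made up 41.6%, so the sums share cells. Leaving out 1 library ended the Plod3 call in 7 of 18 fits and the P4ha1 call in 1, without ZT6 replicate 2.

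In the smaller subtypes the calls were fewer. In the Krtdap subtype Loxl2 was called (1 of 10 members, 5.28% of all genes), with a peak at 3.19 ± 0.581 h. In the Cxcl1 subtype Lox and Loxl2 were called (2 of 10, 3.70% of all genes), with peaks at 5.50 ± 0.823 and 3.74 ± 0.603 h, and with the replicate block Lox was lost, leaving 1, as it was in 12 of 17 fits without 1 library. In the interferon subtype Loxl2 was called (1 of 10, 3.45%) with a peak at 3.50 ± 0.713 h, and with the replicate block Lox as well, making 2.

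Lox was also called in the Cxcl14 subtype (1 of 9 members, 0.690% of all genes; peak at 7.31 ± 0.860 h, edgeR adjusted p = 0.0197) and in the Cilp subtype (1 of 10, 2.08%; peak at 4.44 ± 0.831 h, adjusted p = 0.0343). In the Cilp subtype its level was 27.1 and 17.4 UMIs per 10000 in the 2 libraries of ZT2 and 8.68, 10.98 and 6.47 in the 3 of ZT14, which do not overlap. This call was lost with the replicate block, leaving 0, and in 11 of 15 fits without 1 library. In the Cthrc1 subtype none of 9 members was called by edgeR, where 1.74% of all genes were, and 4 had an unadjusted p under 0.05. These 4 are given without the share of all genes at the unadjusted threshold, so no excess is read from them.

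**Figure D5:**
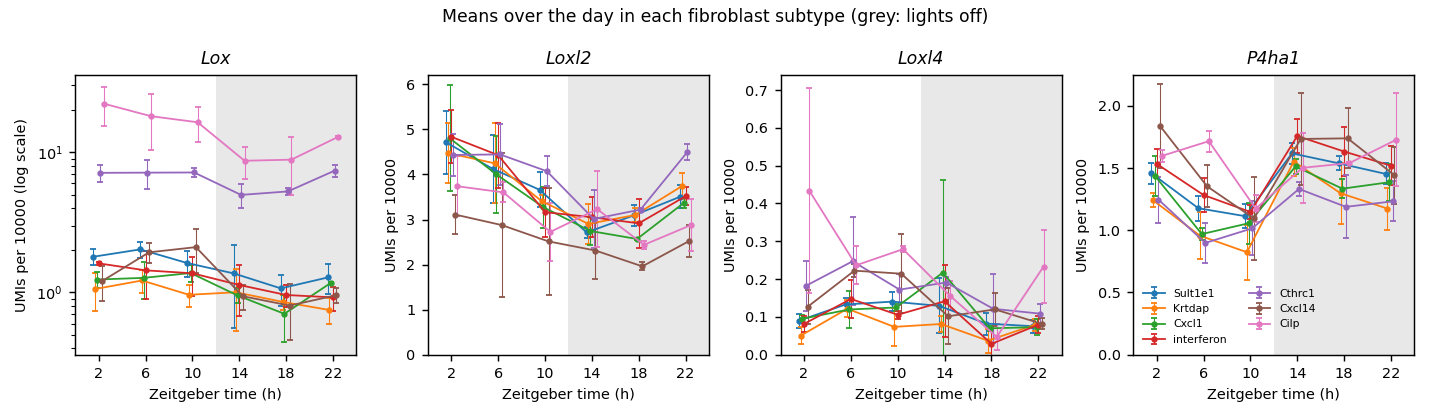
Mean UMIs per 10000 of Lox (logarithmic axis), Loxl2, Loxl4 and P4ha1 at each zeitgeber time in the 7 fibroblast subtypes, 1 line per subtype, with SD bars over 2 or 3 libraries and grey for the dark phase. Lox lies higher in the Cilp and Cthrc1 subtypes at every time, and Loxl2 is lower at ZT14 than at ZT2 in every subtype shown.

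Whether the rhythms differ between subtypes was tested directly, with the library as a block. None of the 10 members was called (edgeR, 1.17% of all genes called), and none had an unadjusted p under 0.05. The smallest edgeR adjusted p was 0.464, that of Lox, followed by 0.476 for Plod2. A call in one subtype and none in another is therefore not shown to be a difference.

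In immune cells none of the 7 members tested was called by edgeR, where 0.0767% of all genes were, and 3 (Lox, Plod3 and P4ha1) had an unadjusted p under 0.05. These 3 are given without the share of all immune genes at the unadjusted threshold, so no excess is read from them. Plod3 was at 0.444 ± 0.114 UMIs per 10000 at ZT14 and at 0.261 ± 0.0110 at ZT10, without overlap (n = 3 each), and P4ha1 at 0.779 ± 0.167 at ZT18 and 0.410 ± 0.0860 at ZT10. Both had their highest mean in the dark phase, as in fibroblasts. In simulated immune counts, the edgeR test found 8 of 67 genes with a log2 amplitude of 0.3 and 36 of 66 with 0.6. The lack of a call in immune cells thus does not show that a rhythm is absent. The difference in rhythm between fibroblasts and immune cells was called for none of 10 members (edgeR, 0.240% of all genes; DESeq2 also none), and none had an unadjusted p under 0.05. The smallest edgeR adjusted p there was 0.652, that of P4ha1. For 6 of the 10 this says little. Loxl4, Plod2 and P4ha2 had too few immune UMIs (2, 40 and 88) to be tested in immune cells alone. Lox, Loxl1 and Loxl2 were in immune cells at the level read as background. In simulated counts, the test of the difference found 5 of 67 genes with a log2 amplitude of 0.3 in fibroblasts only. The other members had fitted fibroblast amplitudes of at most 0.19 (Plod3), so the test says little for them too. Immune sums held between 437115 and 5499739 UMIs, against 2878976 to 33334979 in fibroblasts.

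Other genes of the pathway were counted in fibroblasts, in lists chosen with earlier results known, beside the 13.0% of all genes that were called. Of 15 tested partner enzymes and chaperones of the endoplasmic reticulum, 3 were called: Fkbp14, a prolyl isomerase that binds collagen, with a peak at 3.24 h and an amplitude of 0.31 on the log2 scale, Fkbp10, another such isomerase, which is needed for telopeptide lysyl hydroxylation, at 7.17 h and 0.27, and P4ha3, the third alpha subunit, at 12.6 h. P4ha3 was hardly detected, with a median of 0.00530 UMIs per 10000 over the 18 libraries. The list's median amplitude was 0.13, as was that of all genes, against 0.19 for the 10 members.

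Of 12 substrates of crosslinking, collagen chains and elastin, 2 were called (16.7%), a share near the 13.0% of all genes. Col5a3, a chain of collagen V, which nucleates collagen I fibrils, went from 2.52 ± 0.471 UMIs per 10000 at ZT2 to 0.942 ± 0.0508 at ZT18 (n = 3 each), with a peak at 3.82 h and an edgeR adjusted p of 0.000179. Col12a1, a fibril-associated collagen, was at 1.09 ± 0.325 at ZT18 and 0.336 ± 0.205 at ZT6. The main chains Col1a1, Col1a2 and Col3a1 were not called.

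Of 14 genes that activate lysyl oxidases or form their scaffold, 2 were called (14.3%), which is again near the 13.0% of all genes. Fbn1, which encodes the fibrillin-1 of microfibrils, was at 25.03 ± 1.49 UMIs per 10000 at ZT2 and 11.3 ± 2.63 at ZT14, with an amplitude of 0.56 and a peak at 2.96 h (edgeR adjusted p = 2.42e-05). Tll1, a protease of the Bmp1 family, had its peak at 20.3 h. Of 18 tested hypoxia-inducible genes, 7 were called (38.9%, against 13.0% of all genes), 3 with a peak in the light and 4 in the dark, among them Pfkfb3, a regulator of glycolysis, at 8.18 h, Ldha, lactate dehydrogenase A, at 15.5 h, Slc2a1, a glucose transporter, at 18.7 h and Vegfa, an angiogenic growth factor, at 21.3 h.

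The clock list served as a check of the times: 14 of 15 clock genes were called, with Arntl at 22.6 h, Nfil3 at 22.3 h, Nr1d2 at 9.43 h and Dbp at 9.88 h. None of 14 dissociation and heat shock genes was called by edgeR, though 6 had an unadjusted p under 0.05. So did 3675 of all 12824 genes tested. The summed level of these 14 genes was between 90.2 and 166.8 UMIs per 10000. The highest sum was in ZT6 replicate 2, which was also the library with the highest Lox. The time means went from 105.5 at ZT14 to 142.6 at ZT10, with 131.4 at ZT2, 132.3 at ZT6, 115.7 at ZT18 and 136.7 at ZT22. The part of these 14 genes in the rhythm of Lox was not tested. Of the markers of the 8 other cell types listed, those that passed the filter on low counts were not called in the fibroblast sums. They were 4 of 9 immune, 6 of 6 muscle and 5 of 5 red blood cell markers, and 1 to 3 markers of each other type. The summed immune markers were between 0.0486 and 0.235, the muscle markers between 0.235 and 1.201 and the red blood cell markers between 0.245 and 9.74. Their part in the rhythms of the members was not tested.

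Over the 18 fibroblast sums, the genes most like each rhythmic member were looked up by Pearson correlation of log2(CPM + 1), which is a description of libraries that share times, days and depth. The correlations are given only with ZT14 replicate 1, which held the highest value of Loxl4, Plod2 and Plod3. Loxl2 was most like Col5a3 (r = 0.963), Prrc1 (0.950) and Wipi1 (0.930), and Lox most like Aldh1l2 (0.941), Tmem30a (0.929) and Dennd2c (0.927). Loxl4 was most like Khdrbs1 (0.928), Tor1aip2 (0.902) and Cpt2 (0.890). Plod3 was most like Farsb (0.897), Secisbp2 (0.896) and Far1 (0.892), and Plod2 most like Chst15 (0.870), Flt1 (0.855) and Rtkn (0.849). Flt1 was hardly detected, with a mean of 0.00523 UMIs per 10000.

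Among the members themselves, the closest pair was Plod1 and P4ha2 (r = 0.792), followed by Plod3 and P4ha1 (0.768), Plod2 and Plod3 (0.753) and Lox and Loxl4 (0.747). The lowest was that of Loxl2 and Plod2 (r = -0.592). These values too are given only with ZT14 replicate 1, whose high Loxl3, Loxl4, Plod2, Plod3 and P4ha1 can raise the correlations among these genes. Loxl2, Loxl3 and Plod3 overlap a gene on the opposite strand (Gm27177, Htra2 and Znhit1), which a stranded 3′ assay counts apart.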

How the data were processed

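The authors deposited raw UMI counts per gene and barcode, 1 matrix per library, with Cell Ranger 3.1.0 and mm10 named in the submitters' processing notes. The study's limits on cells were applied: 850 to 7800 genes and less than 13% of UMIs from mitochondrial genes. Clusters came from 2000 variable genes, without the 10 members and 15 clock genes, 30 principal components, 15 neighbours and Leiden resolution 0.8 (scanpy 1.11.5, igraph 0.11.9, leidenalg 0.10.2). They were named where 3 markers were detected, by a scoring rule revised after clusters were seen, and names of the study were not used. No doublets were removed in the main result. An alternative left out the 219 cells with the highest Scrublet scores.

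The UMIs of each cell type, or of a subtype with at least 10 cells, were added up within a library and tested with edgeR 4.0.16 in R 4.3.3 (TMM, filterByExpr, quasi-likelihood F test of 24 h cosine and sine terms, Benjamini-Hochberg adjustment). Differences in rhythm were interactions with the library as a block. Calls had an adjusted p under 0.05. The scripts were tested on simulated data. Alternatives were DESeq2 1.42.0, JTK_Cycle, limma 3.58.1, other filters, clusters and cells, each library left out, and the replicate as a block, since replicates share a collection day. JTK_Cycle was computed anew with 18 templates, some at periods shorter or longer than 24 h. Its p was adjusted for the number of templates (Bonferroni) but not over genes, and is called unadjusted for that reason. The median correlation of deviations within replicates 1, 2 and 3 was 0.0764, -0.0211 and 0.0494. Python 3.11.15, numpy 2.4.6, scipy 1.17.1 and pandas 2.3.3 were used.

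The members and lists were chosen with earlier results of these data known. The text names all 10 members, up to 4 called genes of each other list with the smallest p, and the 3 genes most correlated with each called member. The result of 1 further list, TGF-beta target genes, is not reported here. Depth was 4850221 to 40827442 UMIs per library, and intervals cover counting error only.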

Additional observations from a re-analysis of the deposited data

How the results depend on the processing

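Of the 10 members, Loxl2 and Loxl4 were called in fibroblasts under all 11 alternatives and without any 1 library, and Loxl1, Loxl3, Plod1 and P4ha2 under none. The number called was 3 with JTK_Cycle, by unadjusted p (Loxl2, Loxl4 and Plod3). It was 3 without the Cilp and Cthrc1 subtypes (Lox, Loxl2 and Loxl4), and 4 or 5 under the other 9. These counts show whether calls held and are not set against a share of all genes. Without 1 library the number was between 2 and 5, where 1218 to 1820 of all genes were called. It was 2 or 3 without ZT6 replicate 1 or 2, ZT14 replicate 2, or ZT18 replicate 2 or 3. P4ha1 was called with the times as a factor. The 1662 genes called became 2369 with DESeq2 and 1059 with the factor. In immune cells JTK_Cycle called 1 member, Plod3, and 0 were called in each other setting. The genes called there were 8 with edgeR, 26 with DESeq2, 25 without a filter, 391 with JTK_Cycle (unadjusted p) and 7 to 17 without 1 library. Between cell types, 31 genes differed in rhythm with edgeR and 86 with DESeq2, and 9 to 29 without 1 library. Between subtypes, 133 did so, 13 with at least 20 cells per sum, which left 4 of the 7 subtypes, and 69 to 255 without 1 library, with 0 members each time.

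With the replicate block, 1 member was called in the Cxcl1 subtype, 2 in the interferon subtype and 0 in the Cilp subtype, and it changed no other count of members. With at least 20 cells per sum, 2 were called in the interferon subtype. These counts too show only whether calls held, without a share of all genes beside them. Without 1 library, the members called were 4 to 5 in the Sult1e1 subtype, 1 in the Krtdap and Cxcl14 subtypes, 0 in the Cthrc1 subtype, 1 to 3 in the Cxcl1 subtype, 1 to 3 in the interferon subtype (changed without ZT6 replicate 2 or ZT14 replicate 1) and 0 to 1 in the Cilp subtype. The Cilp subtype then had 87 to 428 called genes, against 183. The causes were not tested. Of the members, Plod2 and Loxl4 had the fewest UMIs, 3237 and 2877 in all fibroblasts, and so the largest relative counting error.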

Other observations

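Plod1 was unevenly spread among immune clusters. It was at 1.27 UMIs per 10000 in the 746 cells of the cluster led by Fcna and at 0.722 in the 617 led by Pf4, pooled over libraries, but at 0.0637 in the 267 led by Pmaip1 and 0.125 in the 199 led by Gzma, a granzyme gene of cytotoxic lymphocytes. P4ha1 ranged less over these 4 clusters, from 0.869 in the first to 0.376 in the last. These are values of clusters, with no test.

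In cells outside the comparisons, Loxl2 was found beside few UMIs of Lox. The cluster led by Mcpt4, in which 3 immune markers were detected, was left unnamed and was not counted among the immune cells. The 54 cells led by Mcpt4, a mast cell protease gene, had 46 UMIs of Loxl2 (1.56 per 10000, exact 95% Poisson interval 1.14 to 2.08) and 25 of P4ha2 (0.847, 0.548 to 1.25), with 1 of Lox and 3 of Loxl1. Keratinocyte-like cells (53) also had 46 UMIs of Loxl2 (0.865 per 10000) and 5 of Lox. Endothelial-like cells (27) had 38 UMIs of Plod1 (1.70 per 10000, 1.21 to 2.34), 7 of Plod2 and 2 of Loxl2. The 964 cells led by haemoglobin genes, with a median of 7294 UMIs per cell, were left unnamed. All 6 fibroblast markers were detected in them beside 4 red blood cell markers. They had levels near those of fibroblasts for Loxl1 (7.60 per 10000), Loxl2 (3.93) and P4ha2 (0.979), and 0.876 for Lox. Intervals cover counting error only.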
